A study of Mus musculus with 12 samples.

Results

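The NRF2 antioxidant genes examined here are 9 genes chosen by symbol: Nfe2l2, Keap1, Nqo1, Hmox1, Gclc, Gclm, Txnrd1, Srxn1 and Sod3. They were chosen with earlier results of these data known. Each symbol matched 1 row of the 23127 genes in the deposited expression table, and all 9 passed the filter of a mean of at least 1 CPM (the reads of a gene scaled to a common total per library), as did 15562 genes in all. RNA was sequenced from flash-frozen whole lung of 12 C57BL6/J mice, with 4 mice in each of 3 groups. The 0-week group is labelled as control. The other 2 groups received L-NAME, an inhibitor of nitric oxide synthase, at 0.5 g/L of drinking water together with a diet of 60% lipid, for 2 or for 5 weeks. Neither the controls' diet nor the age and sex of the mice is stated in the sources used here for these libraries; the series text gives its control diet, low in fat, for a single-cell experiment that was not analysed here. No untreated group was kept for 2 or 5 weeks, so treatment and time on study cannot be told apart. The study concerns pulmonary vascular remodelling in heart failure with preserved ejection fraction, and L-NAME with a high-fat diet is its mouse model.

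NRF2, the transcription factor encoded by Nfe2l2, is held in the cytoplasm by KEAP1, which hands it to a ubiquitin ligase for degradation. Oxidants and electrophiles modify cysteines of KEAP1, NRF2 then escapes degradation, enters the nucleus with a small MAF partner and binds antioxidant response elements beside genes of glutathione synthesis, thioredoxin recycling, quinone reduction and haem breakdown. Much of this control acts on the NRF2 protein, which was not measured here, so the Nfe2l2 transcript alone does not report NRF2 activity. In the lung the pathway is known for protecting epithelium and endothelium from inhaled and inflammatory oxidants, and Sod3, the extracellular superoxide dismutase, is abundant in vessel walls and protects nitric oxide from superoxide.

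None of the 9 genes passed the test in any comparison of the 3 groups, where 0.0% of all 15562 genes did. The largest difference in Gclc, the catalytic subunit of glutamate-cysteine ligase, was between 5 and 0 weeks, at 136 ± 11.8 against 178 ± 20.4 CPM (SD, n = 4). At 2 weeks Nqo1, Txnrd1 and Gclm averaged 12.6, 114 and 79.2 CPM, against 9.24, 103 and 73.1 CPM in the controls. At 5 weeks these 3 averaged 9.17, 103 and 71.3 CPM. Hmox1 averaged 38.7, 36.1 and 38.7 CPM at 0, 2 and 5 weeks, and Sod3 averaged 593, 564 and 564 CPM. For both genes the groups overlapped. The tests were made with limma on log2(CPM + 1) over all 15562 genes at an adjusted p of 0.05.

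The 12 libraries had estimated depths between 25900000 and 34000000 reads, from the spacing of their low CPM values. The 9 genes had between about 198 reads (Nqo1 in control replicate 4) and 19400 reads (Sod3 in 2-week replicate 4) per library. Lung markers were present in every library: 10 of 10 alveolar type 2 markers and 8 of 8 alveolar type 1 markers lay above 0 throughout. In a principal component analysis of log2(CPM + 1), 2-week replicate 3 lay farthest out on the first component, 5-week replicate 3 on the second and control replicate 2 on the third. Fat cell markers summed to 1934 CPM in control replicate 2 and to at most 200.2 CPM in the other 11 libraries. Red cell markers summed to 16230 CPM in 5-week replicate 3 and to at most 4495 CPM elsewhere. Replicate numbers only name mice. Fewer cells of a type and less RNA per cell cannot be told apart in whole-lung RNA.

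Promoter sequence shows where the motif bound by NRF2 lies beside these genes. RefSeq promoter windows on GRCm38.p6, from 250 bases before to 50 bases after a start site, were matched by symbol for 6 of the 9 genes (8 windows, since Txnrd1 has 3 start sites); Hmox1, Gclc and Sod3 had none. The core of the antioxidant response element, TGACNNNGC, was searched on both strands and occurred in 12.4% of all 32851 windows and in 4 of these 8. TGAGTCAGC, a close relative that also holds the AP-1 site TGAGTCA, occurred in 0.414% of all windows and, among these genes, only in that of Srxn1. The stretches holding a match are printed 5′ to 3′ on the strand of the gene, with the match in capitals.
Gclm: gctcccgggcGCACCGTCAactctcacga
Txnrd1: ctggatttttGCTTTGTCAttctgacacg
Srxn1, first match: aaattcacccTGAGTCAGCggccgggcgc
Srxn1, second match: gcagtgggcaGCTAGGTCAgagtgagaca
Nfe2l2: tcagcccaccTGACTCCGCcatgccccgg
The Gclm stretch lies at chr3:122245413-122245441 on the plus strand, with its match from -134 to -126 relative to the start site. That of Txnrd1 lies at chr10:82859104-82859132 on the plus strand, with its match from -92 to -84, beside 1 of its 3 start sites. The Srxn1 stretches lie at chr2:152105469-152105497 and chr2:152105542-152105570 on the plus strand, with matches from -45 to -37 and, past the start site, from 28 to 36. The Nfe2l2 stretch lies at chr2:75704885-75704913 on the minus strand, with its match from -240 to -232. In Gclm, Txnrd1 and the second Srxn1 stretch the element reads on the opposite strand. A match describes the letters and shows no binding. The windows of Nqo1 and Keap1 did not hold these letters; sequence outside the windows was not searched.

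Nfe2l2 (ENSMUSG00000015839, chromosome 2, 75505857 to 75534985 on the minus strand, as the deposited table places it in a build it does not name) stood at 197, 197, 227 and 251 CPM in control replicates 1 to 4. It stood at 184, 192, 189 and 199 CPM in 2-week replicates 1 to 4 and at 203, 208, 184 and 199 CPM in 5-week replicates 1 to 4. Control replicates 3 and 4 were the highest of the 12, 3 of the 4 libraries at 2 weeks lay under every control, and the groups overlapped. The mean was 218 ± 25.9 CPM at 0 weeks, 191 ± 6.0 CPM at 2 weeks and 198 ± 10.1 CPM at 5 weeks (SD, n = 4). On the log2 scale the difference was -0.18 ± 0.08 (SE) at 2 weeks (limma adjusted p = 0.512) and -0.13 ± 0.08 at 5 weeks (adjusted p = 0.667). Without control replicate 4 these differences were -0.11 and -0.06, and with library weights the 5-week difference was -0.05.

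Keap1, whose protein is the cytoplasmic inhibitor of NRF2 (ENSMUSG00000003308, chromosome 9, 21141026 to 21150657), varied little. The controls stood at 77.6, 84.1, 78.3 and 72.5 CPM, the 2-week libraries at 84.5, 79.4, 83.7 and 87.9 CPM and the 5-week libraries at 78.9, 83.7, 78.8 and 82.7 CPM. Control replicate 4, the library with the most Nfe2l2, had the least Keap1. The fitted log2 difference was 0.10 ± 0.06 (SE) at 2 weeks (limma adjusted p = 0.614) and 0.05 ± 0.06 at 5 weeks (adjusted p = 0.806). Without control replicate 4 these were 0.07 and 0.02, and the 5-week difference was 0.09 without control replicate 2. The ratio of Nfe2l2 to Keap1 CPM was 2.54, 2.34, 2.90 and 3.46 in the controls, between 2.18 and 2.41 at 2 weeks and between 2.34 and 2.57 at 5 weeks. These ranges overlapped between groups, and the treated libraries spanned a narrower range than the controls.

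Glutamate-cysteine ligase makes the first and rate-limiting step of glutathione synthesis, and its catalytic subunit GCLC and modifier subunit GCLM form a heterodimer. Gclc (ENSMUSG00000032350, chromosome 9, 77661817 to 77701767) stood at 193, 172, 152 and 196 CPM in the controls. It stood at 149, 132, 139 and 155 CPM at 2 weeks and at 137, 145, 119 and 143 CPM at 5 weeks. Every 5-week library lay under every control, and 3 of the 4 at 2 weeks did, the exception being 2-week replicate 4 at 155 CPM beside control replicate 3 at 152 CPM. The log2 difference was -0.30 ± 0.09 (SE) at 2 weeks (limma adjusted p = 0.377), with a 95% interval of the fold from 0.705 to 0.930. At 5 weeks it was -0.38 ± 0.09 (adjusted p = 0.379), with an interval from 0.668 to 0.880. Its unadjusted p of 0.00112 at 5 weeks was the smallest of the 9 genes and ranked 44 among the 15562 genes tested. Over the 20 alternatives its 5-week difference lay between -0.46 and -0.32 and its adjusted p between 0.19 and 0.862. The 2 treated groups differed from each other by -0.08 ± 0.09 (adjusted p = 0.818), and by -0.02 without 5-week replicate 3 and -0.04 without 2-week replicate 4.

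Markers of several cell types also differed mostly in 1 direction between 5 and 0 weeks, although none passed the adjusted threshold in limma. Over all genes tested 55.0% had a positive difference, and 8.63% had an unadjusted p under 0.05 (5.84% higher and 2.79% lower). B cell markers had 8 of 8 with a positive difference (7 with an unadjusted p under 0.05) and summed to between 191 and 394 CPM at 5 weeks, above the 101 to 176 CPM of the controls. Red cell markers had 7 of 7 tested positive (7 under 0.05), with summed ranges that overlapped (1512 to 16230 against 1238 to 2607 CPM). Neutrophil markers had 9 of 9 tested positive (6 under 0.05; 180 to 429 against 107 to 266 CPM), and Ly6g was at 0 in some libraries. Monocyte markers had 9 of 10 positive (6 under 0.05; 1608 to 2101 against 1817 to 2010 CPM). Alveolar type 2 markers had 10 of 10 positive (2 under 0.05; 29270 to 37120 against 24650 to 29550 CPM). Alveolar macrophage markers had 11 of 12 positive (1 under 0.05). Of club and secretory markers 9 of 10 were negative (1 under 0.05), and of smooth muscle markers 9 of 10 (2 under 0.05). Cardiomyocyte markers had 7 of 8 negative (0 under 0.05). Interstitial macrophage markers had 9 of 12 negative (2 under 0.05) and 3 positive (1 under 0.05). Fibroblast markers had 7 of 10 negative (3 under 0.05) and 3 positive (2 under 0.05). The part of these markers in the Gclc difference was not tested. Without 5-week replicate 3, the library richest in red cell RNA, the Gclc difference at 5 weeks was -0.32.

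Gclm (ENSMUSG00000028124, chromosome 3, 122039206 to 122064381) did not follow Gclc. It stood at 74.9, 73.3, 70.4 and 74.0 CPM in the controls, at 85.1, 74.9, 81.0 and 75.8 CPM at 2 weeks and at 66.5, 72.9, 72.9 and 72.8 CPM at 5 weeks. The 2-week libraries lay above all controls and all 5-week libraries, although 2-week replicate 2 and control replicate 1 were less than 0.1 CPM apart. On the log2 scale the difference was 0.11 ± 0.06 (SE) at 2 weeks (limma adjusted p = 0.593) and -0.04 ± 0.06 at 5 weeks (adjusted p = 0.864; -0.004 without 5-week replicate 1). Between 5 and 2 weeks it was -0.15 ± 0.06 (adjusted p = 0.409). A non-coding transcript listed at 28.1 CPM overlaps Gclm on the opposite strand in GENCODE M21, and the counting is not stated to use strand, so reads of the 2 may be mixed.

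The ratio of Gclc to Gclm separated the controls from both treated groups. It was 2.57, 2.34, 2.16 and 2.65 in the controls, 1.74, 1.76, 1.72 and 2.04 at 2 weeks and 2.06, 1.99, 1.63 and 1.96 at 5 weeks. Every treated library lay under every control, with means of 2.43 ± 0.223, 1.82 ± 0.149 and 1.91 ± 0.19 (SD, n = 4). A ratio within a library does not depend on how libraries are scaled. This ratio was chosen after its values were seen, and it is given without a test. The share of ratios of other genes that separate the groups in this way was not computed. Among single genes 5.32% did not overlap between 2 and 0 weeks and 5.01% between 5 and 0 weeks. At 5 weeks Gclc alone also lay under every control. Any reads of the non-coding transcript counted with Gclm would enter the ratio. The ratio shows an unequal difference of the 2 subunits and not which of them moved.

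**Figure D1:**
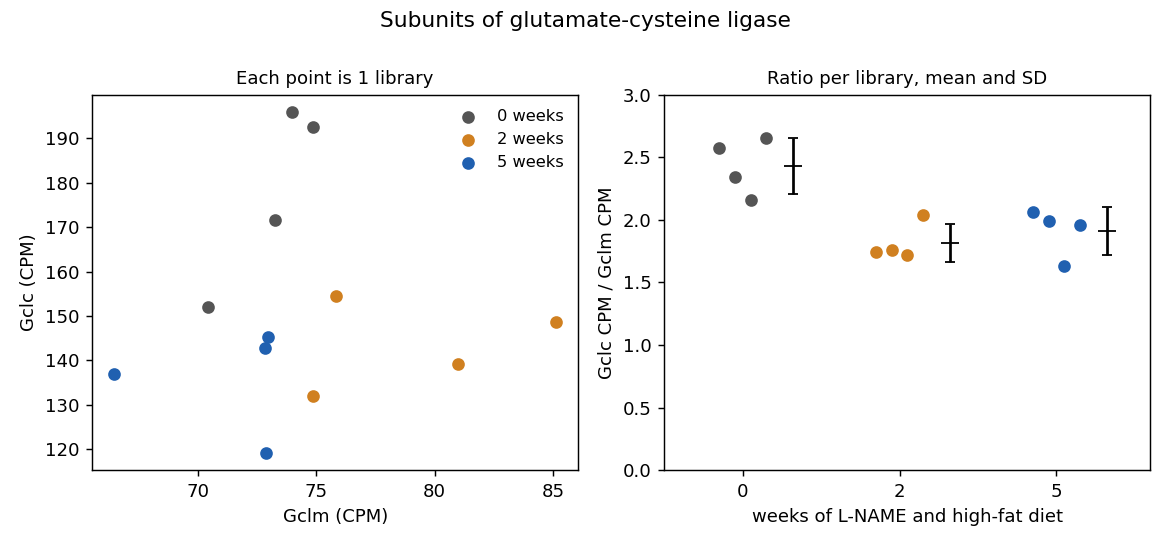
The left plot sets Gclc against Gclm (both in CPM, axes not starting at 0) for 12 libraries, coloured by weeks of treatment; the right plot gives the ratio of Gclc to Gclm in each library with mean and SD bars (n = 4). All 8 treated libraries have a ratio of at most 2.06, under the lowest control at 2.16. The ratio was chosen after its values were seen.

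Txnrd1 and Srxn1 serve the thiol cycle that removes peroxides. Txnrd1 (ENSMUSG00000020250, chromosome 10, 82669785 to 82733546) encodes cytosolic thioredoxin reductase. It stood at 111, 99.7, 101 and 102 CPM in the controls, 114, 111, 115 and 115 CPM at 2 weeks and 102, 111, 98.3 and 101 CPM at 5 weeks. The 2-week libraries were the tightest group of any of the 9 genes, with a coefficient of variation of 1.68%, and lay above all controls and all 5-week libraries. The gap was small: control replicate 1 stood at 110.76 and 2-week replicate 2 at 110.82 CPM. The fitted log2 difference was 0.14 ± 0.06 (SE) at 2 weeks (limma adjusted p = 0.506), -0.005 ± 0.06 at 5 weeks (adjusted p = 0.982) and -0.14 ± 0.06 between 5 and 2 weeks (adjusted p = 0.407).

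Srxn1 (ENSMUSG00000032802, chromosome 2, 151947436 to 151953296) encodes sulfiredoxin, which repairs over-oxidised peroxiredoxins. The controls stood at 35.3, 34.3, 29.4 and 28.6 CPM, the 2-week libraries at 33.8, 30.5, 39.9 and 35.0 CPM and the 5-week libraries at 32.5, 35.3, 33.8 and 31.4 CPM. The 3 ranges overlapped, and 2-week replicate 3 was the highest of all. The log2 difference was 0.12 ± 0.09 (SE) at 2 weeks (limma adjusted p = 0.681) and 0.06 ± 0.09 at 5 weeks (adjusted p = 0.852). The 2-week difference was 0.05 without 2-week replicate 3 and 0.07 without control replicate 4. Leaving out 1 library moved the 5-week difference to between 0.01 (without control replicate 4) and 0.11 (without control replicate 1).

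Nqo1 encodes a quinone reductase and is widely used as a readout of NRF2 activity (ENSMUSG00000003849, chromosome 8, 108114857 to 108129838). It was the least abundant of the 9 per length of transcript. The controls stood at 11.5, 10.1, 9.10 and 6.28 CPM, the 2-week libraries at 12.4, 9.54, 15.9 and 12.7 CPM and the 5-week libraries at 8.34, 9.15, 11.1 and 8.09 CPM. Of the 2-week libraries 3 lay above every control and every 5-week library, and 2-week replicate 2 lay within both. On the log2 scale the difference was 0.42 ± 0.18 (SE) at 2 weeks (limma adjusted p = 0.495), a fold of 1.34 with a 95% interval from 1.03 to 1.74. At 5 weeks it was 0.008 ± 0.18 (adjusted p = 0.99) and between 5 and 2 weeks -0.41 ± 0.18 (adjusted p = 0.421). The 2-week difference was 0.27 without control replicate 4, the lowest library, 0.27 with library weights and 0.36 without the 3 libraries that stand apart.

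Smooth muscle markers were also highest at 2 weeks, as Txnrd1, Gclm and Nqo1 were on average. The 10 markers summed to between 1551 and 2127 CPM at 2 weeks, against 1422 to 1546 CPM in the controls and 1230 to 1533 CPM at 5 weeks, and all 10 were above 0 in every library. Of these markers 8 of 10 had a positive difference between 2 and 0 weeks (6 with an unadjusted p under 0.05). The other 2 were negative (1 under 0.05). Between 5 and 2 weeks 10 of 10 were negative (8 under 0.05). Over all genes tested 55.1% had a positive difference between 2 and 0 weeks, and 50.2% between 5 and 2 weeks. At an unadjusted p under 0.05 there were 9.24% and 10.9% of all genes. Between 2 and 0 weeks cardiomyocyte markers had 8 of 8 positive (0 under 0.05) and interstitial macrophage markers 10 of 12 negative (6 under 0.05). Ciliated cell markers had 10 of 10 positive (2 under 0.05), endothelial markers 9 of 10 (2) and club and secretory markers 8 of 10 (1). Alveolar macrophage markers had 10 of 12 negative (2 under 0.05) and fibroblast markers 9 of 10 (1). Also negative were 8 of 9 tested neutrophil markers (0), 8 of 10 monocyte markers (1) and 7 of 7 tested fat cell markers (0). Between 5 and 2 weeks ciliated cell markers had 10 of 10 negative (2 with an unadjusted p under 0.05). Club and secretory cell markers had 10 of 10 negative (4 under 0.05) and cardiomyocyte markers 8 of 8 (1 under 0.05). Endothelial markers had 7 of 10 negative (1 under 0.05). In the opposite direction, alveolar macrophage markers had 12 of 12 positive (8 under 0.05), neutrophil markers 9 of 9 tested (8 under 0.05), monocyte markers 8 of 10 (8 under 0.05), red cell markers 7 of 7 tested (6 under 0.05) and B cell markers 8 of 8 (5 under 0.05). None passed the adjusted threshold in limma. The summed levels of the alveolar macrophage markers were 468 to 987 CPM at 2 weeks and 841 to 1059 CPM at 5 weeks, and those of the club and secretory markers 25400 to 38090 and 22720 to 30460 CPM. The part of these markers in the 3 genes' differences was not tested.

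Hmox1 (ENSMUSG00000005413, chromosome 8, 75820249 to 75827217) encodes the inducible haem oxygenase, which splits haem into biliverdin, iron and carbon monoxide and is abundant in macrophages that clear red cells. It stood at 49.4, 36.6, 33.2 and 35.6 CPM in the controls, 35.1, 34.0, 35.7 and 39.4 CPM at 2 weeks and 42.1, 36.1, 38.8 and 37.7 CPM at 5 weeks. Control replicate 1 was the highest, and the other 11 libraries lay between 33.2 and 42.1 CPM. The fitted log2 difference was -0.08 ± 0.11 (SE) at 2 weeks (limma adjusted p = 0.80) and 0.01 ± 0.11 at 5 weeks (adjusted p = 0.976, fold interval 0.858 to 1.19). Without control replicate 1 these differences were 0.04 and 0.13. The 2-week difference was -0.15 without control replicate 3 and -0.13 without 2-week replicate 4. In 5-week replicate 3, where red cell markers summed to 16230 CPM, Hmox1 stood at 38.8 CPM. Alveolar macrophage markers summed to between 468 and 539 CPM in 2-week replicates 1 to 3. They summed to 987 CPM in 2-week replicate 4, whose Hmox1 was the highest of its group. The highest sum at 5 weeks was 1059 CPM in replicate 4, with Hmox1 at 37.7 CPM, under replicate 1 (899 and 42.1 CPM). Control replicate 2 had the highest control sum (1029 CPM) and Hmox1 at 36.6 CPM, under replicate 1 (980 and 49.4 CPM). Control replicate 3 had the lowest of both among the controls (505 and 33.2 CPM). This relation was not tested.

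Sod3 (ENSMUSG00000072941, chromosome 5, 52521133 to 52528760) was the most abundant of the 9. The controls stood at 594, 554, 609 and 614 CPM, the 2-week libraries at 537, 540, 531 and 645 CPM and the 5-week libraries at 577, 623, 503 and 553 CPM. The 3 lowest libraries at 2 weeks lay under every control, whereas 2-week replicate 4 lay above them all. The log2 difference was -0.08 ± 0.08 (SE) at 2 weeks (limma adjusted p = 0.773, fold interval 0.836 to 1.08) and -0.07 ± 0.08 at 5 weeks (adjusted p = 0.802, fold interval 0.837 to 1.08). The 5-week difference was -0.02 without 5-week replicate 3 and -0.12 without 5-week replicate 2. That at 2 weeks was -0.14 without 2-week replicate 4 and -0.05 without 2-week replicate 3.

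**Figure D2:**
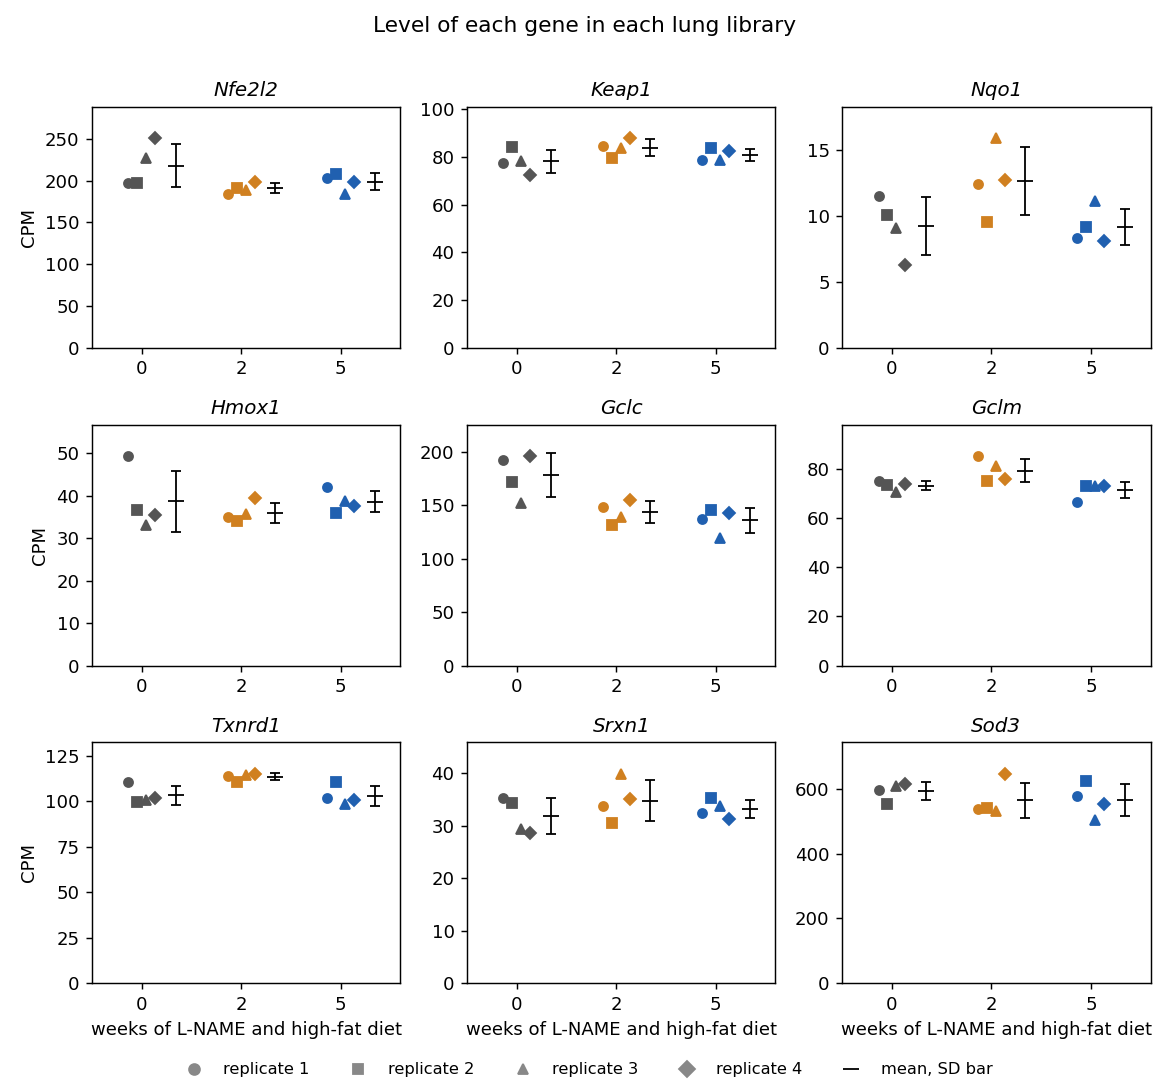
CPM of each gene (y axis from 0) in each of the 12 libraries by weeks of treatment; symbols name replicates and black bars give mean and SD (n = 4). Gclc at 5 weeks lies under all controls, Txnrd1 and Gclm at 2 weeks lie just above all other libraries, and the other 6 genes overlap between groups.

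Across the genes, levels were compared per kilobase of exon (all GENCODE M21 exons of a gene merged, which can overstate the length of the transcript in use). In the controls the order was Sod3 (159 ± 7.32 CPM per kb, SD, n = 4), Nfe2l2 (57.4 ± 6.83), Gclc (47.3 ± 5.42), Hmox1 (22.1 ± 4.15), Keap1 (16.6 ± 1.02), Txnrd1 (14.6 ± 0.717), Gclm (11.6 ± 0.306), Srxn1 (11.3 ± 1.2) and Nqo1 (5.95 ± 1.42). The control ranges of Nfe2l2 and Gclc, of Keap1 and Txnrd1, and of Gclm and Srxn1 overlapped. Gclm exceeded Srxn1 in 5 of 12 libraries. Each of the other neighbours in this order kept its place in all 12 libraries.

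In the comparison of 2 with 0 weeks 0 of 9 genes passed at an adjusted p of 0.05, where 0.0% of all 15562 genes did (limma, Benjamini-Hochberg). At an unadjusted p under 0.05 there were 4 of 9 (Nqo1 and Txnrd1 higher, Gclc and Nfe2l2 lower), where 9.24% of all genes were (5.72% higher and 3.52% lower). That count was 1 without control replicate 3 or 4 or 2-week replicate 1 or 3, 2 without 2-week replicate 4 and 3 or 4 without any other library. It was 2 without the 3 libraries that stand apart. The 2-week libraries lay above all controls for 2 of 9 genes, Txnrd1 and Gclm, where 3.37% of all genes did, and below them for 0 of 9, where 1.95% did (5.32% in either direction). The median log2 difference of the 9 was 0.10, against 0.02 over all genes tested, with 5 higher and 4 lower.

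In the comparison of 5 with 0 weeks 0 of 9 passed (0.0% of all genes), and 1 of 9, Gclc, had an unadjusted p under 0.05 (8.63% of all genes, 5.84% higher and 2.79% lower). It was also the only 1 of the 9 whose treated libraries all lay under the controls, where 1.36% of all genes did, and 0 of 9 lay above them, where 3.65% did (5.01% in either direction). The median log2 difference of the 9 was -0.005, against 0.02 over all genes. For 5 against 2 weeks 0 of 9 passed (0.0%), and 3 of 9 had an unadjusted p under 0.05 (Nqo1, Txnrd1 and Gclm, each lower at 5 weeks), where 10.9% of all genes had (6.18% higher and 4.72% lower). That count was 0 without 2-week replicate 1 or 3, without 5-week replicate 1, or without the 3 libraries that stand apart, and 1 without 2-week or 5-week replicate 4. Txnrd1 and Gclm did not overlap between 5 and 2 weeks, where 2.56% of all genes lay lower without overlap and 2.38% higher (4.94% in either direction). The comparisons share libraries, so the 2-week libraries enter both the first and the last. With a moderated F-test over the 3 groups 0 of 9 passed (0.0%); Gclc had the smallest adjusted p at 0.304 and Hmox1 the largest at 0.838.

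**Figure D3:**
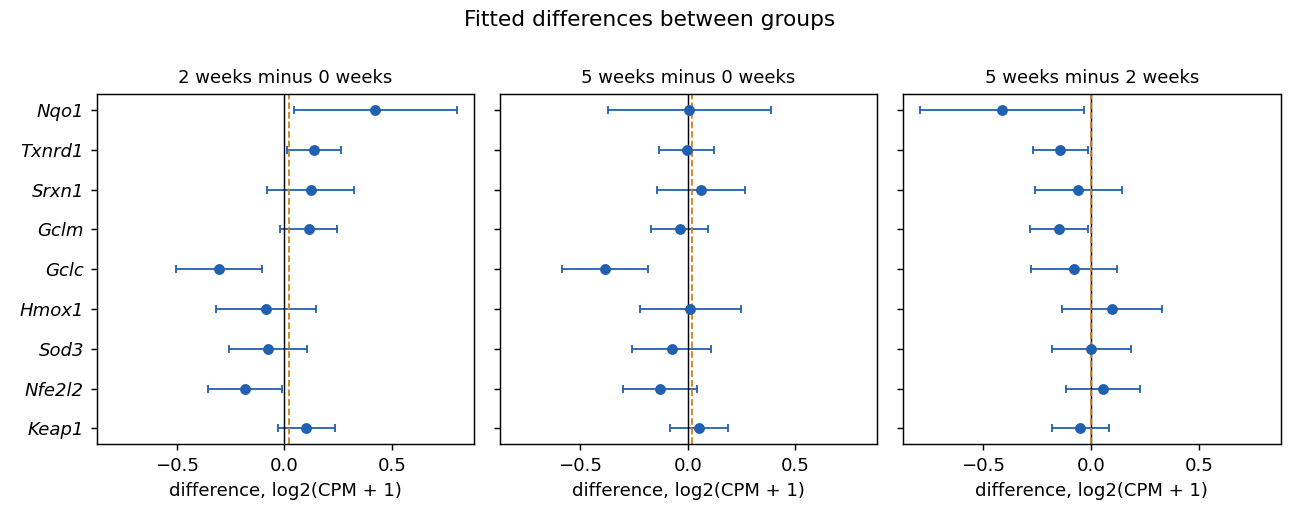
Fitted log2 differences of the 9 genes (points) with 95% intervals (bars) for the 3 comparisons; the dashed line is the median of all genes tested. The intervals of Gclc lie under 0 for both treated groups against the controls, and the widest intervals are those of Nqo1.

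The 36 pairs among the 9 genes were examined for variation together over the 12 libraries. Nqo1 and Srxn1 had the strongest relation, with Pearson's r = 0.837 (permutation p = 0.0009, adjusted over 36 pairs 0.0324) and Spearman's rho = 0.748 (permutation p = 0.00665, adjusted 0.0708). Without the 2 libraries farthest from the median of Nqo1, 2-week replicate 3 and control replicate 4, r was 0.58 (permutation p = 0.0806), over a narrower range of Nqo1. The pair no longer passed after adjustment when any 1 of 7 libraries was left out: control replicates 1, 2 and 4, 2-week replicate 3, and 5-week replicates 1, 3 and 4. With each group centred on its own mean r was 0.872. Within the groups r was 0.865 at 0 weeks, 0.989 at 2 weeks and 0.584 at 5 weeks, each over only 4 libraries. No other pair passed after adjustment, and 11 of the 36 had an unadjusted Pearson permutation p under 0.05. The share of pairs among all genes tested that reach this was not computed. These counts therefore do not set the 9 genes apart from other genes. Gclc and Gclm, the subunits of one enzyme, had r = 0.0582 (permutation p = 0.86, adjusted 0.918) and rho = 0.203 (permutation p = 0.532, adjusted 0.912), and r was 0.0966 without the 2 libraries farthest out in Gclc (permutation p = 0.793). Within the groups r of this pair was 0.942 at 0 weeks, 0.261 at 2 weeks and -0.0733 at 5 weeks, each over only 4 libraries. Nfe2l2 and Nqo1 had r = -0.73 (permutation p = 0.00653, adjusted 0.0784) and rho = -0.727 (permutation p = 0.00984, adjusted 0.0708), with r = -0.561 (permutation p = 0.091) without control replicates 3 and 4. Within the groups r of this pair was -0.941 at 0 weeks, -0.112 at 2 weeks and -0.75 at 5 weeks. Gclm and Txnrd1 had r = 0.679 (permutation p = 0.00549, adjusted 0.0784) and rho = 0.762 (permutation p = 0.00512, adjusted 0.0708). Within the groups their r was 0.621, 0.383 and 0.132 at 0, 2 and 5 weeks.

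**Figure D4:**
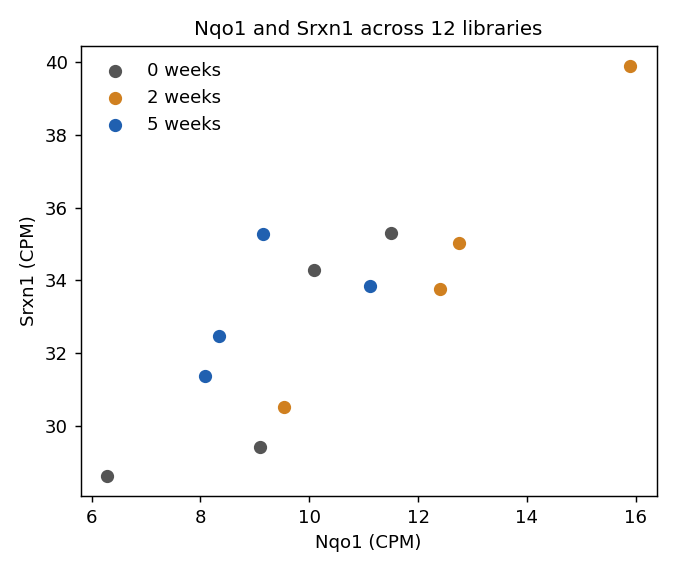
Srxn1 against Nqo1 (both in CPM, axes not starting at 0), 1 point per library, coloured by weeks of treatment. The library at the top right is 2-week replicate 3, with 15.9 CPM of Nqo1 and 39.9 CPM of Srxn1, and the one at the bottom left is control replicate 4, with 6.28 and 28.6 CPM.

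The genes most like each of the 9 by Pearson's r over the 12 libraries were taken from 15561 candidates, as a description of these libraries with no test. For Gclc they were Mfsd2a (r = 0.907, rho = 0.951) and Fam177a (r = 0.902, rho = 0.86). For Gclm they were Fam216b (0.857 and 0.65) and Gmppa (0.834 and 0.874), for Txnrd1 Gjb2 (0.89 and 0.783) and Rd3 (0.874 and 0.79), and for Srxn1 Thtpa (0.882 and 0.699) and Suclg1 (0.873 and 0.783). For Nqo1 they were Lpar6 (0.901 and 0.797) and the pseudogene Tubb4b-ps1 (0.894 and 0.839), for Hmox1 Glrx (0.851 and 0.783) and Bcl11b (0.847 and 0.811), and for Sod3 Npnt (0.916 and 0.916) and P3h3 (0.908 and 0.937). For Nfe2l2 they were Zfp9 (0.946 and 0.643) and Hsph1 (0.941 and 0.839), and for Keap1 Rtl6 (0.894 and 0.86) and Saal1 (0.883 and 0.769). Without the 2 libraries farthest out in the member, r lay between 0.65 (Zfp9) and 0.958 (Rd3).

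Other genes of the pathway were taken from 8 lists, none of which had a gene past the adjusted threshold in limma in any of the 3 comparisons. The lists were chosen with earlier results of these data known, so their counts are a description only. Over all genes tested 55.1% had a positive difference at 2 weeks and 55.0% at 5 weeks. Without overlap, 3.37% of all genes lay above the controls at 2 weeks and 1.95% under them. Between 5 and 2 weeks 2.38% lay higher without overlap. Each gene named from a list had the smallest p of that list, a choice that favours groups without overlap. Glutathione transferases, which couple glutathione to electrophiles, had 14 of 14 tested genes with a positive difference at 2 weeks and 9 of 14 at 5 weeks. Their median log2 differences were 0.17 and 0.07 (0.02 and 0.02 over all genes). In limma 3 of the 14 had an unadjusted p under 0.05 at 2 weeks and 0 at 5 weeks, against 9.24% and 8.63% of all genes. Gstt3 averaged 39.8 ± 3.37 CPM at 2 weeks against 32.8 ± 5.88 CPM in the controls (SD, n = 4; limma adjusted p = 0.458). Drug and aldehyde detoxification genes had 14 of 15 with a positive difference at 2 weeks (3 with an unadjusted limma p under 0.05) and 11 of 15 at 5 weeks (1 under 0.05). The carbonyl reductase gene Cbr1 stood between 52.9 and 61.0 CPM at 2 weeks, above the 38.8 to 50.3 CPM of the controls (adjusted p = 0.438). Members of one family can share reads where the counting does not separate them.

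In the NRF2 control list, which is not limited to regulators of NRF2, 14 of 14 genes were tested, with 5 positive at 2 weeks and 4 at 5 weeks. Nfe2l3, which encodes the related factor NRF3, averaged 5.25 ± 1.12 CPM at 2 weeks against 3.16 ± 0.485 CPM in the controls (SD, n = 4; limma adjusted p = 0.238) and 3.61 ± 0.439 CPM at 5 weeks (adjusted p = 0.762). All 4 libraries at 2 weeks lay above all controls, where 3.37% of all genes did. In the glutathione and cystine list 8 of 12 were positive at 2 weeks and 10 of 12 at 5 weeks. Slc7a11, the cystine importer that feeds glutathione synthesis, was of low abundance, with 1.22 ± 0.255 CPM at 2 weeks against 2.04 ± 0.344 CPM in the controls (adjusted p = 0.41) and 2.40 ± 0.53 CPM at 5 weeks. Its 2-week libraries lay under all controls and all 5-week libraries (5 minus 2 weeks 0.61 ± 0.15 log2, SE, adjusted p = 0.288).

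Of the thioredoxin and peroxiredoxin genes 9 of 12 were positive at 2 weeks and 10 of 12 at 5 weeks, and Sesn1, which encodes sestrin 1, had the smallest p, with 52.5 ± 6.26 CPM at 5 weeks against 46.3 ± 1.74 CPM (SD, n = 4; limma adjusted p = 0.578). Of the NADPH supply genes 2 of 6 were positive at 2 weeks and 4 of 6 at 5 weeks. G6pdx, which encodes the entry enzyme of the pentose phosphate pathway, stood between 32.5 and 39.5 CPM at 2 weeks and between 44.7 and 49.3 CPM at 5 weeks, without overlap (adjusted p = 0.288), and the controls spanned 35.6 to 57.2 CPM. Of the superoxide dismutase and catalase genes other than Sod3 4 of 4 were positive at 2 weeks and 3 of 4 at 5 weeks. Mitochondrial Sod2 averaged 159 ± 9.64 CPM at 2 weeks, 144 ± 7.64 CPM at 0 weeks and 139 ± 2.52 CPM at 5 weeks (SD, n = 4; adjusted p = 0.508 for 2 against 0 weeks and 0.301 for 5 against 2 weeks). Of the haem and iron genes 2 of 10 were positive at 2 weeks and 7 of 10 at 5 weeks. The macrophage haemoglobin receptor gene Cd163 stood between 10.4 and 12.3 CPM at 2 weeks, under the 12.96 to 36.76 CPM of the controls (adjusted p = 0.377), and the highest control was replicate 2.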

How the data were processed

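The authors deposited CPM values (gene counts scaled to a common total per library) for 12 whole-lung libraries, with 0.0001 added to every value. Per the submitters' processing notes, TopHat2 and Partek were used with mm10. The annotation, strand setting, filters and tool versions were not given in the sources used here. In position, the deposited start matched GENCODE M21 on GRCm38 for 0 of the 9 genes and the gene length for all 9, so positions are printed as deposited, with the stop minus 1 as the end. Low values gave steps that were whole within 0.1 for only 87.8% to 88.4% of values, so no count model was fitted, and no interval for counting error is given. P-values measure the spread between mice.

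Values were analysed as log2(CPM + 1) for genes averaging 1 CPM or more, a scale that understates differences of low genes. Limma 3.58.1 in R 4.3.3 fitted all 12 libraries with a variance trend, two-sided, with Benjamini-Hochberg adjustment over all genes tested. The fit was tested on simulated counts with known changes, drawn for each gene separately. The simulation held no outlying libraries and no shifts shared between genes, so it does not cover their effect on these tests. Permutation tests of the 36 relations used 100000 resamples (Python 3.11.15, numpy 2.4.6). The members and lists were chosen with earlier results of these data known; promoter motifs and ratios were added after values were seen. Named beyond the 9 are, for each pathway list, genes past the threshold or otherwise the 1 with the smallest p, and for each member the 2 genes with the highest r, predicted genes left out. Cell type lists are given as summed CPM. Alternatives were pseudocounts of 0.1 and 5, no filter, a filter of 10 CPM, median-of-ratios scaling, library weights, fits of 2 groups and leaving out each library.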

Additional observations from a re-analysis of the deposited data

Results flagged for a closer look

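In 2 of the 27 combinations of gene and group 1 library lay far from the other 3 of its group; chance gives about 1 in 20. Gclm in 5-week replicate 1 stood at 66.5 CPM, against 72.8 to 72.9 CPM in the other 5-week libraries, and its gap to the nearest was 0.98 of the range of the group. Sod3 in 2-week replicate 4 stood at 645 CPM, against 531 to 540 CPM in the other 2-week libraries, a gap of 0.922 of the range. Without 5-week replicate 1 the log2 difference of Gclm between 5 and 0 weeks was -0.004, and without 2-week replicate 4 that of Sod3 between 2 and 0 weeks was -0.14.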

How the results depend on the processing

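For the 9 genes, 540 alternative values were computed (27 differences, 20 alternatives each); in 0 of them did a gene pass, and the lowest adjusted p in limma was 0.0715 (Gclm, 5 against 2 weeks, library weights). The sign differed from that reported in 24 of the 540, in 6 differences close to 0. With median-of-ratios scaling these were -0.01396 for Nqo1 and -0.01161 for Hmox1 (5 against 0 weeks) and -0.002602 for Sod3 (5 against 2 weeks). With library weights they were -0.16 for Nqo1 and -0.0332 for Hmox1 (5 against 0 weeks). Without the 3 libraries that stand apart, an alternative chosen after seeing the data, they were -0.03139 for Nqo1, -0.009765 for Hmox1 and 0.0005145 for Txnrd1 (5 against 0 weeks). With 1 library left out, the difference between 5 and 0 weeks ranged from -0.15 to 0.11 for Nqo1, from -0.05305 to 0.1328 for Hmox1 and from -0.03966 to 0.02912 for Txnrd1. That between 2 and 0 weeks ranged from -0.1505 to 0.03535 for Hmox1, and that between 5 and 2 weeks from -0.1183 to 0.007119 for Srxn1 and from -0.04683 to 0.06847 for Sod3. The cause was not tested. Over all genes, library weights called 18 genes for 2 against 0 weeks, 881 for 5 against 2 weeks and 286 with the F-test, where 0 were called as reported, and 1438, 1696 and 1681 had an unadjusted p under 0.05. For 5 against 0 weeks 1343 had. Median-of-ratios scaling moved the split of these from 890 higher and 548 lower to 674 and 747 (2 against 0 weeks), and from 909 and 434 to 652 and 628 (5 against 0 weeks). With 1 library left out, genes called ranged from 0 to 24 for 2 against 0 weeks (24 without 5-week replicate 3, 1 without control replicate 1), from 0 to 1 for 5 against 0 weeks (1 without control replicate 1), from 0 to 386 for 5 against 2 weeks (386 without 2-week replicate 4) and from 0 to 132 with the F-test (132 without 2-week replicate 4, 5 without 5-week replicate 3, 2 without control replicate 1). Pairs of members past the adjusted threshold ranged from 0 to 2 with 1 library left out, and were 0 without the 3 libraries that stand apart. The cause was not tested. No paired analysis was possible because replicate numbers were given in accession order and pair no mice. Nqo1 had the fewest reads of the 9, about 198 in control replicate 4.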
